A study of Mus musculus with 4 samples.

Results

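The 8 genes described here, Spi1, Cebpa, Cebpb, Cebpd, Cebpe, Gfi1, Klf4 and Id2, encode transcription factors of granulocytes and monocytes. They were chosen by name through the platform annotation, out of 19938 genes measured on Affymetrix whole-transcript arrays, and all 8 of 8 were measured. Each had 1 probe set, namely 10473809 for Spi1, 10552140 for Cebpa, 10478890 for Cebpb, 10433885 for Cebpd, 10419850 for Cebpe, 10532124 for Gfi1, 10513008 for Klf4 and 10399691 for Id2. RNA came from mouse colony-forming cells grown in methylcellulose with serum, SCF (stem cell factor) and the cytokines GM-CSF, IL-6 and IL-3, on a C57BL/6 background. There were 4 groups of 1 array each: CreER-transduced cells derived from LT-HSCs (long-term haematopoietic stem cells), CreER-transduced cells derived from ST-HSCs (short-term haematopoietic stem cells), mock-transduced cells derived from LT-HSCs and mock-transduced cells derived from ST-HSCs. CreER joins the recombinase Cre to a hormone-binding domain of the oestrogen receptor, which makes Cre activity depend on a ligand. By its title, the series concerns stem cells that conditionally express the leukaemic fusion protein MLL-ENL. Which cells carried the conditional allele, which promoter drove it, and whether an inducing ligand was given are not stated in the sources used here, and neither is the number of animals behind an array. CreER minus mock therefore compares 2 transductions. Each group is a single array, so the pairwise differences below carry no measure of replicate error, and only 4 arrays stand behind any value.

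As background, blood cell fate in the myeloid lineages is set by a small network of transcription factors. PU.1, the product of Spi1, is an ETS-family factor needed for both granulocytes and monocytes. The C/EBP proteins are basic leucine zipper factors that bind DNA as dimers: C/EBP-alpha acts at the entry into the granulocyte-monocyte lineage, C/EBP-epsilon drives the late granule genes of neutrophils and eosinophils, and C/EBP-beta and C/EBP-delta respond to cytokines and inflammation. Gfi1 is a zinc finger repressor that favours neutrophils over monocytes, whereas Klf4, a zinc finger factor of the Krüppel-like family, is known for promoting monocyte differentiation. Id2 has no DNA-binding domain and blocks E proteins by dimerising with them. In human acute myeloid leukaemia, loss of C/EBP-alpha function is a known lesion.

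The labelled starting cells were stem cells, but the RNA came from their colony progeny. All 10 neutrophil markers in a list used for this check lay above the signal floor on every array, the floor being an array's median over probe sets with 1 gene symbol (8.07 to 8.13 on the log2 scale). Of 15 monocyte and macrophage markers, 10 were above it on both CreER arrays and 11 on both mock arrays. Of 13 mast cell and basophil markers, 12 were above it on both LT-HSC-derived arrays, 9 on the ST-HSC CreER array and 6 on the ST-HSC mock array. Only 1 of 5 B cell markers (Cd79b) and 1 of 7 T and NK cell markers (Thy1) were above it on any array.

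All 8 transcription factor genes were above the floor on all 4 arrays. None differed 2-fold between any pair of arrays compared, and 6 of the 8 varied over a range of under 0.5 log2 units. A range this small was common, since its 75th percentile over all genes with 1 or more arrays above the floor was 0.47. Klf4 was the widest, with 0.96 log2 units between its highest and lowest arrays, a range larger than that of 94.3% of the 10411 genes with 1 or more arrays above the floor. Cebpd followed with a range of 0.72, larger than that of 89.6% of those genes. Spi1 was the narrowest, with 0.22, below the median range of 0.30 over all those genes. The median range of the 8 genes was 0.38.

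**Figure D1:**
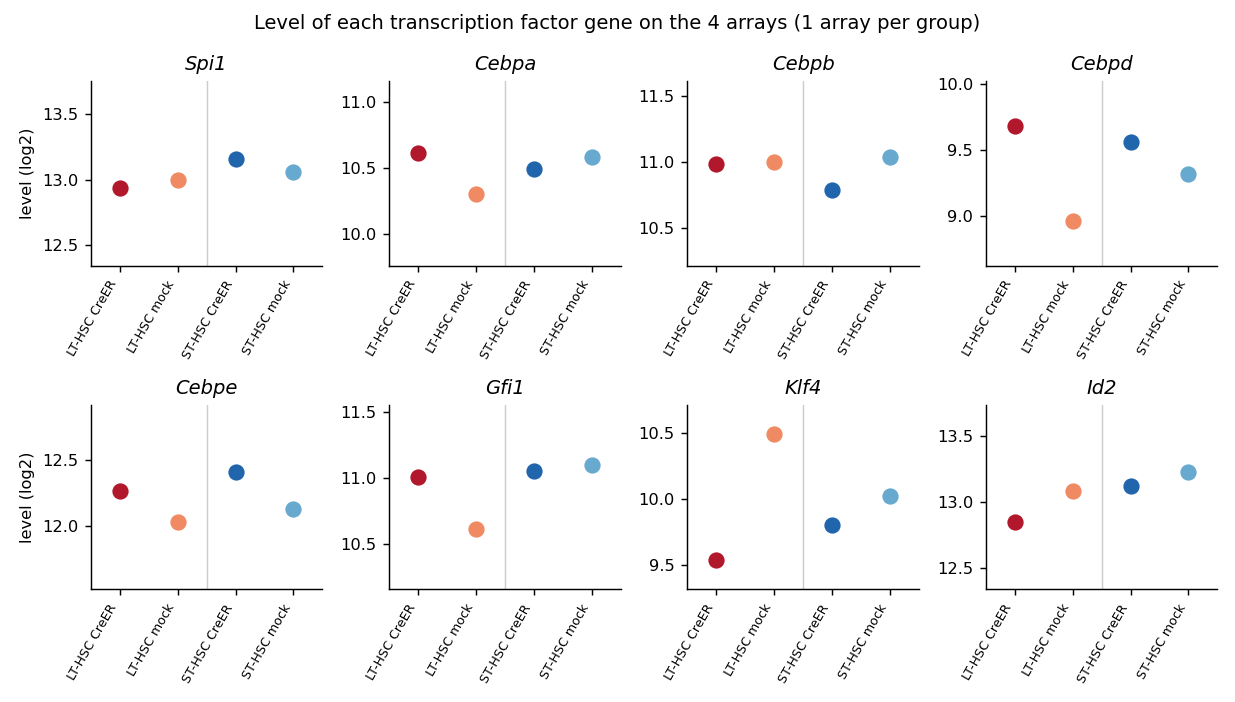
Log2 level of each of the 8 genes (y axis, the same span in every panel) on the 4 arrays (x axis, 1 point per array, 1 array per group). Klf4 is highest and Cebpa, Cebpd, Cebpe and Gfi1 are lowest on the LT-HSC mock array, while Spi1 and Cebpb span 0.22 and 0.25 log2 units.

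Klf4, the monocyte-promoting factor, had a log2 level of 9.54 in LT-HSC CreER cells and 10.49 in LT-HSC mock cells. In ST-HSC-derived cells its level was 9.80 with CreER and 10.02 with mock. The LT-HSC mock array was thus the highest and the LT-HSC CreER array the lowest of the 4. CreER minus mock was -0.96 log2 units among LT-HSC-derived cells, a 1.94-fold difference that lay just short of 2-fold, and -0.22 among ST-HSC-derived cells. Only 0.993% of all genes past the floor had a larger difference among LT-HSC-derived cells, against 17.2% among ST-HSC-derived cells. LT-HSC minus ST-HSC was -0.26 with CreER and 0.47 with mock, so the population difference had opposite signs in the transductions, which was not tested.

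The 250 bases before the annotated start of Klf4 are shown because this gene varied most. They lie on the minus strand of GRCm38.p6 at chr4:55532476-55532725 in the RefSeq promoter table. Capitals mark matches, on either strand, to the letters searched: TTGCNNAA for C/EBP, GAGGAAGT for PU.1, GGGNGTGG for Krüppel-like factors, CANNTG for any E-box, CCAAT for the CCAAT box and TATAAA for the TATA box.
Klf4: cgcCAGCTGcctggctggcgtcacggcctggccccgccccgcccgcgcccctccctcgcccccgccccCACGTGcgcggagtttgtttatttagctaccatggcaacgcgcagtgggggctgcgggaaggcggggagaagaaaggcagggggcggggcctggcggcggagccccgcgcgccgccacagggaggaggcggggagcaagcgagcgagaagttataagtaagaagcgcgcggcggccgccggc
Both matches in this stretch were E-boxes, 182 and 247 bases before the start, a motif that 66.2% of all 32851 promoter stretches of this length also held. The other 5 motifs were not matched in this window.

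Among the C/EBP genes, Cebpa had a level of 10.62 in LT-HSC CreER cells and 10.30 in LT-HSC mock cells, and of 10.49 in ST-HSC CreER cells and 10.59 in ST-HSC mock cells. The LT-HSC mock array stood lowest, and the other 3 arrays spanned 0.12 log2 units. CreER minus mock was 0.32 among LT-HSC-derived and -0.09 among ST-HSC-derived cells. Its promoter stretch, on the plus strand at chr7:35119043-35119292 of the same build, held 1 match, a TATA box 30 bases before the start, which 12.4% of all promoter stretches held.
Cebpa: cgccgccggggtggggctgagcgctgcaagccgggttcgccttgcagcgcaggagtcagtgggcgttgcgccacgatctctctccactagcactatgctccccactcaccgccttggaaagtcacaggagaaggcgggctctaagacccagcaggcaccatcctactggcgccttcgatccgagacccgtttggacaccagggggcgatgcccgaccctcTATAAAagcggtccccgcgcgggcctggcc

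Cebpd, an acute-phase member of the family, had a level of 9.69 in LT-HSC CreER cells and 8.96 in LT-HSC mock cells. In ST-HSC-derived cells it stood at 9.56 with CreER and 9.32 with mock. Both CreER arrays were above both mock arrays. CreER minus mock was 0.72 among LT-HSC-derived cells, a 1.65-fold difference exceeded in size by 2.22% of genes past the floor, and 0.24 among ST-HSC-derived cells. Cebpe, the factor of late granulocyte maturation, likewise had both CreER arrays above both mock arrays. Its levels were 12.26 in LT-HSC CreER cells against 12.03 in LT-HSC mock cells, and 12.41 in ST-HSC CreER cells against 12.13 in ST-HSC mock cells. The CreER minus mock differences of Cebpe were of like size in the populations, 0.23 among LT-HSC-derived and 0.29 among ST-HSC-derived cells. Cebpb, known from emergency granulopoiesis and macrophages, was at 10.99 in LT-HSC CreER cells and 11.00 in LT-HSC mock cells, and at 10.79 in ST-HSC CreER cells and 11.04 in ST-HSC mock cells. It therefore differed by only -0.02 among LT-HSC-derived cells and by -0.25 among ST-HSC-derived cells, with the ST-HSC CreER array lowest.

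Gfi1, the repressor that opposes monocyte fate, had a level of 11.01 in LT-HSC CreER cells and 10.61 in LT-HSC mock cells, and of 11.05 in ST-HSC CreER cells and 11.10 in ST-HSC mock cells. As with Cebpa, the LT-HSC mock array stood apart on the low side and the other 3 lay close together, with 0.05 and 0.04 log2 units between neighbours. CreER minus mock was 0.40 among LT-HSC-derived cells and -0.05 among ST-HSC-derived cells, and LT-HSC minus ST-HSC was -0.04 with CreER and -0.49 with mock. The RefSeq table listed 2 starts for Gfi1. The stretch before one of them, on the minus strand at chr5:107725806-107726055, is shown as the only one of 6 stretches from 5 of the genes that held a C/EBP match.
Gfi1: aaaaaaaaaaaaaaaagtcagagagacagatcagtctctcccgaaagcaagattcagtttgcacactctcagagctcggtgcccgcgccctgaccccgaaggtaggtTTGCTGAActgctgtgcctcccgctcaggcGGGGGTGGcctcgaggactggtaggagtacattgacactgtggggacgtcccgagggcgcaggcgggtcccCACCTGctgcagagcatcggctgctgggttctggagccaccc
The C/EBP match began 143 bases before the start, a Krüppel-like match 113 bases before it and an E-box 42 bases before it, with no overlap between them. Of all promoter stretches, 9.6% held a C/EBP match and 15.9% a Krüppel-like match. The stretch before the other Gfi1 start and that of Cebpb also held a Krüppel-like match, and the Id2 stretch held 3 CCAAT boxes, a motif present in 33.8% of all stretches. The PU.1 letters, found in 2.4% of all stretches, were not matched in any of the 6. Cebpd, Cebpe and Spi1 were not looked at for motifs.

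Spi1, the gene of PU.1, stood at 12.94 in LT-HSC CreER cells and 12.99 in LT-HSC mock cells, and at 13.16 in ST-HSC CreER cells and 13.06 in ST-HSC mock cells. The ST-HSC-derived arrays were both above the LT-HSC-derived ones, by at most 0.22 log2 units. Id2 had levels of 12.85 in LT-HSC CreER cells and 13.08 in LT-HSC mock cells, and of 13.12 in ST-HSC CreER cells and 13.22 in ST-HSC mock cells. Id2 was lower with CreER in both populations, by differences of -0.24 and -0.11, and lower among LT-HSC-derived than among ST-HSC-derived cells, by -0.27 with CreER and -0.14 with mock.

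Each gene's arrays were ordered by level, and the gaps between neighbours were set beside the SD of a difference of 2 arrays. This SD was 0.131 to 0.261 log2 units, from the residuals of the additive fit described below. It comes from the same arrays as the gaps, so a gap larger than it is a description and not a test of order. The share of such gaps over all genes was not computed. Of the 24 gaps, 10 were larger than this SD, and none of the 3 gaps of Spi1 was. For Klf4, the gap below the LT-HSC mock array (0.47) and the gap above the LT-HSC CreER array (0.26) were larger, while ST-HSC mock and ST-HSC CreER differed by less. For Gfi1 and Cebpa the gap above the LT-HSC mock array was larger, at 0.40 and 0.19, and the other 3 arrays were not ordered beyond this spread. For Cebpd both gaps around the ST-HSC mock array were larger, and for Cebpe both gaps around the LT-HSC CreER array. For Id2 the gap above the LT-HSC CreER array was larger, and for Cebpb the gap above the ST-HSC CreER array.

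In LT-HSC-derived cells, 0 of the 8 genes were at least 2-fold higher or lower with CreER, where 0.108% of the 10172 genes past the floor were higher and 0.767% lower. At a lower threshold of 1.5-fold, Cebpd was higher and Klf4 lower, 1 of 8 in each direction, against 1.02% and 3.08% of all genes. The difference was above 0 for 4 of the 8 genes (Cebpa, Cebpd, Cebpe and Gfi1) and below 0 for the other 4, of which Cebpb, at -0.02, was at 0.01 after quantile normalization, with a median of 0.11 beside -0.03 over all genes past the floor. Cebpa, Cebpe and Gfi1 thus lay on the opposite side of 0 to Klf4, without reaching 1.5-fold. In ST-HSC-derived cells, 0 of the 8 reached 2-fold (background 0.438% higher and 0.0796% lower) and 0 reached 1.5-fold (1.42% and 0.567%), with 3 of 8 above 0 and a median of -0.07, beside -0.03 over all genes.

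**Figure D2:**
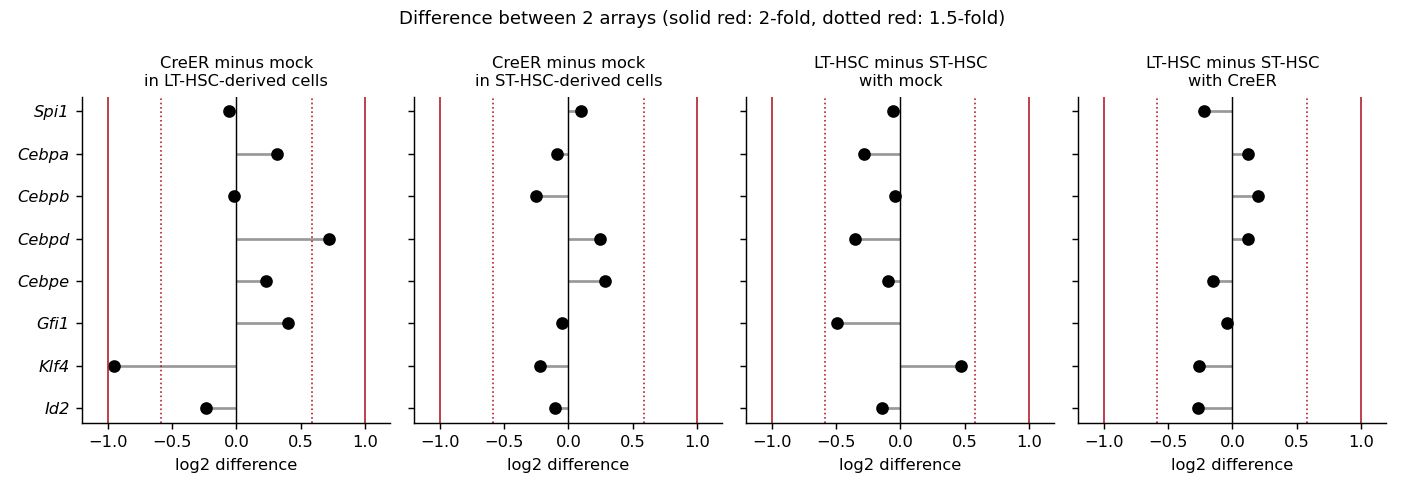
Log2 difference between 2 arrays (x axis) for each of the 8 genes (rows) in the 4 comparisons (panels), with solid red lines at 2-fold and dotted red lines at 1.5-fold. Only Klf4 and Cebpd pass a dotted line, both for CreER minus mock among LT-HSC-derived cells, and no point reaches a solid line.

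Between populations no gene of the 8 reached 1.5-fold. With CreER, 0 of the 8 reached 2-fold (background 1.39% higher and 0.55% lower) or 1.5-fold (3.62% and 3.22%), and the largest difference was that of Id2, at -0.27. With mock, 0 reached 2-fold (2.72% and 0.402%) or 1.5-fold (5.47% and 2.62%), and the largest were those of Gfi1, at -0.49, and Klf4, at 0.47. With mock, 7 of the 8 were below 0, Klf4 being the exception, with a median of -0.12 beside -0.03 over all genes past the floor; with CreER, 5 of 8 were below 0, with a median of -0.10 beside -0.02. The LT-HSC mock array enters both the CreER comparison among LT-HSC-derived cells and the population comparison with mock, so these are not separate observations.

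**Figure D3:**
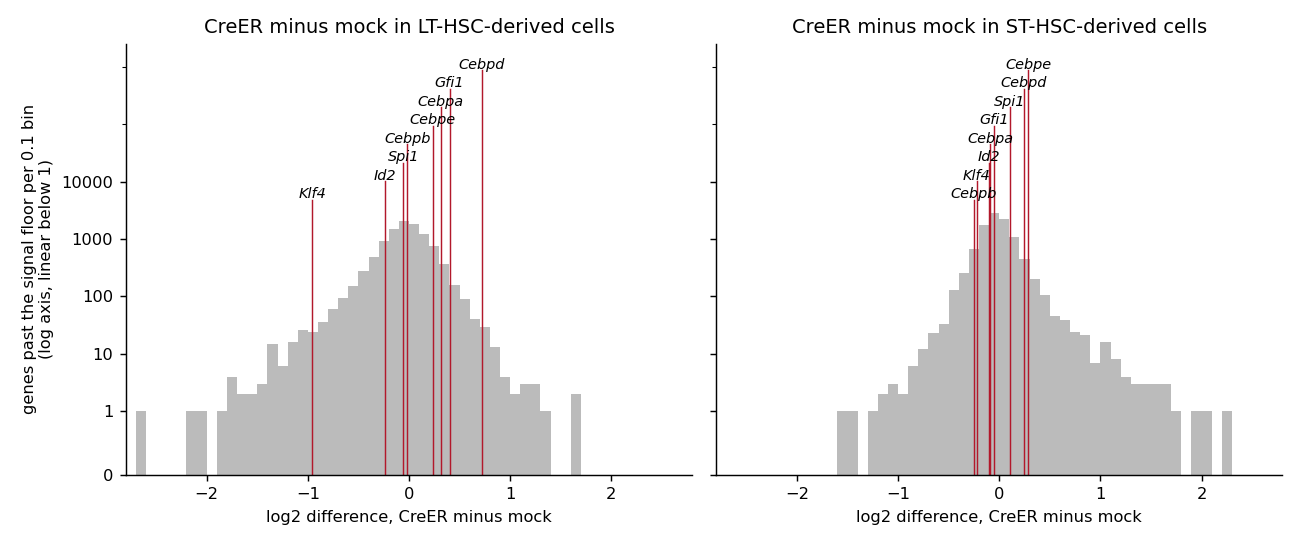
Number of genes past the signal floor (y axis, log scale, linear below 1) per 0.1-unit bin of the log2 difference CreER minus mock (x axis), among LT-HSC-derived cells (left) and ST-HSC-derived cells (right), with the 8 genes marked by red lines whose height carries no value. Klf4 at -0.96 lies in the lower tail among LT-HSC-derived cells, and among ST-HSC-derived cells the 8 genes lie between -0.25 and 0.29.

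An additive model with terms for transduction and population was fitted across the 10411 genes with limma. With 1 residual degree of freedom for each gene, the fit sets the mean CreER effect against its spread between the populations, not between biological replicates. For CreER against mock, 0 of the 8 genes passed in limma at 0.05 after Benjamini-Hochberg adjustment, nor did any of the 10411 genes (0% called), while 3 of the 8 and 1048 of all genes had an unadjusted p under 0.05. Those 3 were Cebpd, with an estimate of 0.48 ± 0.14 (SE, limma adjusted p = 0.394), Klf4, with -0.59 ± 0.18 (limma adjusted p = 0.411), and Cebpe, with 0.26 ± 0.09 (limma adjusted p = 0.458). The 95% interval of Klf4 reached from -1.06 to -0.12. For the other 5 genes the interval included 0 and left out a 1.5-fold mean change in either direction. That of Spi1 reached from -0.23 to 0.27. The Cebpe interval, from 0.02 to 0.49, also left out such a change. Each interval rests on only 4 arrays and 1 residual degree of freedom. For LT-HSC against ST-HSC, 0 of the 8 passed in limma, where 3.78% of all genes were called higher and 2.49% lower. An unadjusted p under 0.05 was found for 0 of the 8 and for 2675 of the 10411 genes. The lowest limma adjusted p of the 8, that of Id2, was 0.254, at an estimate of -0.21 ± 0.10 (SE).

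**Figure D4:**
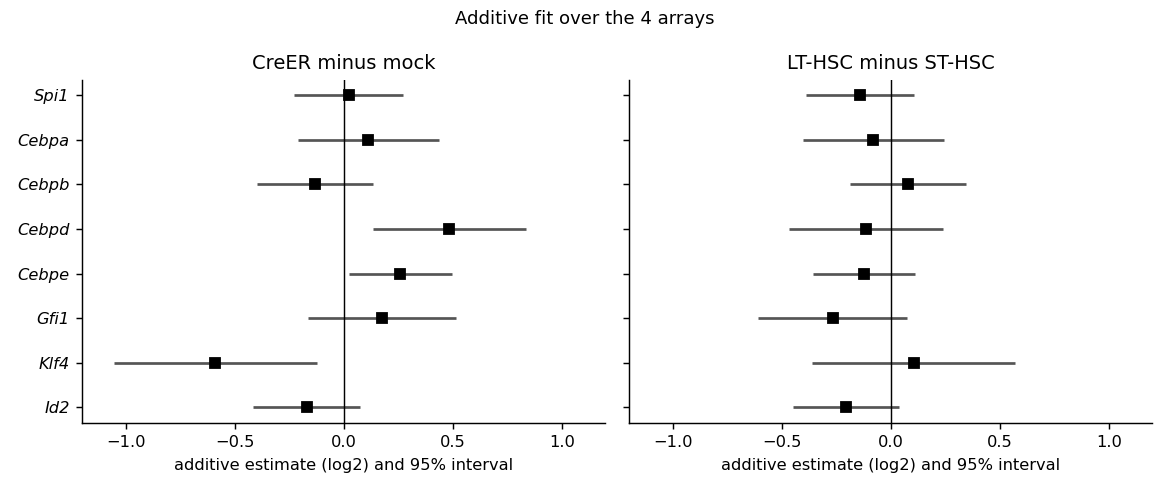
Estimates of the additive limma fit over 4 arrays (x axis, log2, squares) with 95% intervals (lines) for the 8 genes (rows), for CreER minus mock (left) and LT-HSC minus ST-HSC (right). Only the CreER intervals of Cebpd, Cebpe and Klf4 leave out 0, before adjustment, and all 8 population intervals include it.

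The CreER differences in the populations could not be tested against each other, since an interaction term leaves no residual degrees of freedom. As values, the LT-HSC CreER effect minus the ST-HSC CreER effect was -0.73 for Klf4, 0.48 for Cebpd, 0.45 for Gfi1 and 0.41 for Cebpa. Among the 10411 genes, 2.87% had a larger difference of effects than Klf4, 7.76% than Cebpd, 8.90% than Gfi1 and 11.4% than Cebpa. For Spi1, Cebpb, Cebpe and Id2 the size was 0.24 or less.

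Genes with the most similar pattern were sought for Klf4 and Cebpd, the genes whose range reached 0.5 log2 units, by the root mean square distance between the 4 centred log2 values, among 10067 named genes. Nearest to Klf4 were Anpep, the aminopeptidase CD13 of myeloid cells, at a distance of 0.073, Cisd1, a mitochondrial outer membrane protein, at 0.080, and Rgl1, a Ral exchange factor, at 0.081. Anpep was at 11.70 in LT-HSC CreER cells and 12.63 in LT-HSC mock cells, and at 11.77 in ST-HSC CreER cells and 12.10 in ST-HSC mock cells. Nearest to Cebpd were the histone genes H2ac4 (0.027) and H2bc18 (0.029), whose near-identical family members can share probe signal, and Arsb (0.038), a lysosomal sulfatase. These distances rest on 4 values per gene.

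Genes that work with the 8 factors were described from lists. For the PU.1 side, Irf8, the monocyte and dendritic cell partner of PU.1, was at 9.95 in LT-HSC CreER cells and 9.78 in LT-HSC mock cells, and at 10.28 in ST-HSC CreER cells and 10.63 in ST-HSC mock cells. It differed between populations by -0.33 with CreER and -0.85 with mock. Gata2, a factor of progenitors and mast cells that opposes PU.1, was instead 2.28 log2 units higher among LT-HSC-derived than among ST-HSC-derived cells with CreER and 3.02 higher with mock, while Spi1 differed by -0.22 and -0.06. Of the 14 PU.1 partners, rivals and relatives past the floor, 0 were 2-fold higher with CreER among LT-HSC-derived cells. Irf4, at -1.03, was the 1 gene 2-fold lower, and the median was 0.03. Over all genes past the floor, 0.108% were 2-fold higher and 0.767% lower, with a median of -0.03. Among ST-HSC-derived cells 0 of 13 were 2-fold apart, beside 0.438% of all genes higher and 0.0796% lower. The median there was -0.01, beside -0.03 over all genes. Between populations, 3 of 14 were 2-fold higher among LT-HSC-derived cells with CreER (background 1.39%) and 2 of 14 with mock (2.72%), and 0 were 2-fold lower. Besides Gata2 these were Gata1, the erythroid, megakaryocytic and mast cell rival of PU.1, at 1.31 with CreER and 1.76 with mock, and, with CreER, Jun, a coactivator of PU.1, at 1.35.

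Among the C/EBP partners and repressors, Trib1, a pseudokinase that targets C/EBP-alpha for degradation, was 1.10 higher among LT-HSC-derived than among ST-HSC-derived cells with CreER and 1.13 higher with mock. Its CreER minus mock difference was 0.49 among LT-HSC-derived and 0.53 among ST-HSC-derived cells. Trib3, a relative induced by stress, was lower with CreER among LT-HSC-derived cells, at -1.08, and stood 1.17 higher among LT-HSC-derived than among ST-HSC-derived cells with CreER and 2.53 higher with mock. Ddit3, a stress-induced C/EBP family member that acts as a dominant negative partner, was 0.53 higher among LT-HSC-derived cells with CreER and 1.59 higher with mock. In all, 2 of 7 members past the floor were 2-fold higher among LT-HSC-derived cells with CreER and 3 of 7 with mock, beside 1.39% and 2.72% of all genes, and 0 were 2-fold lower. Markers of other cells lay on the same side: 6 of 12 mast cell and basophil markers past the floor were 2-fold higher among LT-HSC-derived cells with CreER and 11 of 12 with mock, as were 5 of 5 megakaryocyte markers with either. The part of these cells in the values of the PU.1 and C/EBP partners was not tested.

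Gfi1b, the paralogue of Gfi1 used by erythroid and megakaryocytic cells, was 1.12 higher among LT-HSC-derived than among ST-HSC-derived cells with CreER and 1.21 higher with mock. The megakaryocyte markers had medians of 1.40 and 1.47 in the same comparisons, and their part in the Gfi1b values was not tested. Gfi1 itself differed by -0.04 with CreER and -0.49 with mock. Kdm1a, the histone demethylase LSD1 recruited by both, differed by at most 0.10 in size in any comparison, and no corepressor partner of the list was 2-fold apart. For CreER minus mock, 8 of 8 genes of this list lay above 0 among LT-HSC-derived cells (6 of 8 with each array centred on its median), with a median of 0.12, and 2 of 8 did among ST-HSC-derived cells, with a median of -0.08. Over all genes past the floor 44.4% and 42.6% lay above 0, with a median of -0.03 in each. Of the partners and relatives of Id2, Tcf3, which encodes the E proteins E12 and E47, differed by 0.02 with CreER among LT-HSC-derived cells and -0.07 among ST-HSC-derived cells. Of 4 ID and E protein genes past the floor, 0 were 2-fold apart in any comparison. Over all genes past the floor, 0.0796% to 2.72% were at least 2-fold apart in a given direction and comparison. Counts of 0 in lists this short therefore say little about these partners.

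Most other monocyte and macrophage transcription factors lay on the same side of 0 as Klf4. Of 16 past the floor, 12 were below 0 with CreER among LT-HSC-derived cells and 13 among ST-HSC-derived cells, with medians of -0.24 and -0.17, beside 55.6% and 57.4% of all genes below 0 and a median of -0.03 in each. Bhlhe41, at -1.29, and Egr2, a macrophage-side rival of Gfi1, at -1.07, were 2-fold lower among LT-HSC-derived cells, and 0 were among ST-HSC-derived cells. Egr1 and Egr3, relatives of Egr2, were among the 4 genes above 0 among LT-HSC-derived cells, at 0.14 and 0.09. Among ST-HSC-derived cells they were at -0.21 and -0.22, and Egr2 was at -0.12. Over all genes past the floor, 0.767% were 2-fold lower among LT-HSC-derived and 0.0796% among ST-HSC-derived cells. Of the other granulocyte and cytokine-response factors, 0 of 10 among LT-HSC-derived and 0 of 9 among ST-HSC-derived cells were 2-fold apart with CreER, with medians of -0.04 and 0.05. The shares of all genes 2-fold higher were 0.108% and 0.438%.

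The granule genes driven by C/EBP factors gave further values. Camp, the cathelicidin gene controlled by C/EBP-epsilon, was at 13.65 in LT-HSC CreER cells and 12.90 in LT-HSC mock cells, and at 13.92 in ST-HSC CreER cells and 13.72 in ST-HSC mock cells. Ltf, lactoferrin, was at 13.65 in LT-HSC CreER cells and 13.07 in LT-HSC mock cells, and at 14.06 in ST-HSC CreER cells and 13.68 in ST-HSC mock cells. Of 10 such secondary granule targets, 8 were above 0 with CreER among LT-HSC-derived cells (median 0.20) and 9 among ST-HSC-derived cells (median 0.25). Over all genes 44.4% and 42.6% were above 0. Among ST-HSC-derived cells Mmp9, at 2.05, was the 1 target 2-fold higher, beside 0.438% of all genes. The LT-HSC mock array was the lowest for 7 of these 10, and for 28.1% of all genes with 1 or more arrays above the floor. It was also the lowest for 4 of the 8 transcription factors.

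Of 15 primary granule and receptor targets of C/EBP factors and PU.1, 0 were 2-fold apart with CreER in either population, and the medians were -0.06 among LT-HSC-derived and -0.01 among ST-HSC-derived cells. Over all genes past the floor, 0.108% were 2-fold higher and 0.767% lower among LT-HSC-derived cells, and 0.438% and 0.0796% among ST-HSC-derived cells. Among LT-HSC-derived cells 6 of the 15 were above 0, beside 44.4% of all genes past the floor; Prtn3 and Elane, neutrophil serine proteases, were at 0.89 and 0.50, and Csf1r, the macrophage growth factor receptor, at -0.41. In ST-HSC-derived cells Prtn3 and Elane were at 0.11 and -0.05, Csf1r at -0.57 and Csf3r, the receptor for G-CSF, at 0.60. Azu1 was not analysed here.

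**Figure D5:**
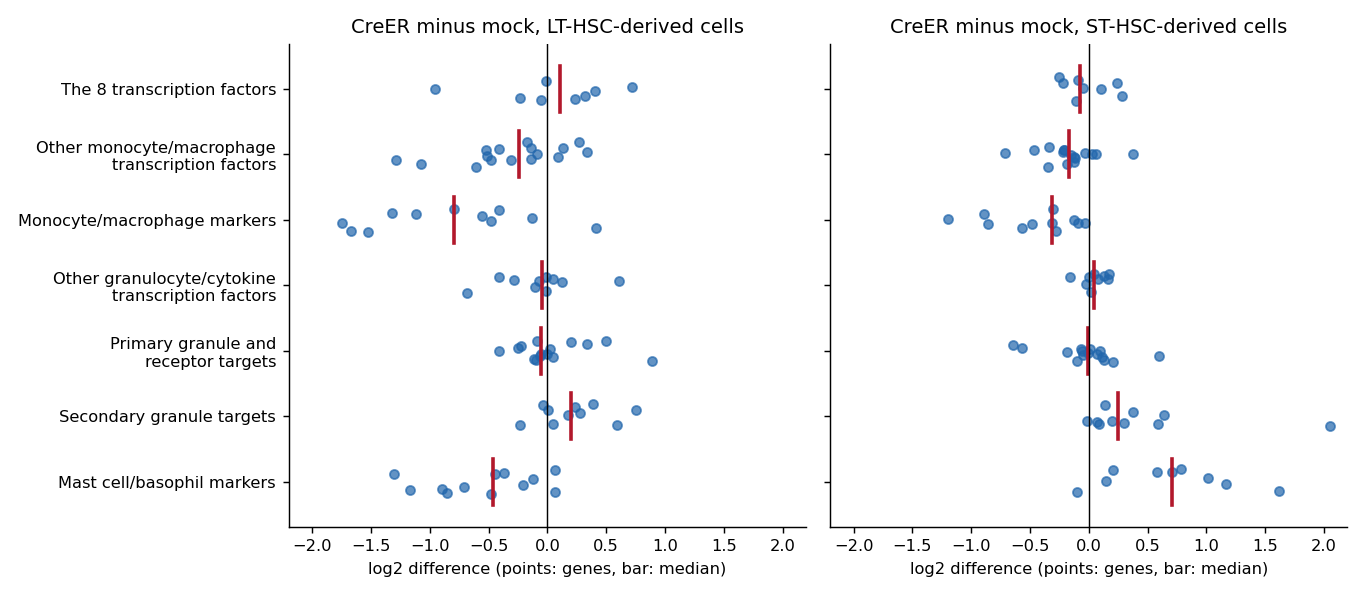
Log2 difference CreER minus mock (x axis) among LT-HSC-derived cells (left) and ST-HSC-derived cells (right) for genes past the signal floor (points, jittered vertically), by list (rows), with the list median as a red bar. The median of the monocyte and macrophage markers is -0.80 on the left and -0.31 on the right, and that of the mast cell and basophil markers is -0.47 on the left and 0.71 on the right.

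Cell type markers also differed between the arrays, and in colony mixtures fewer cells of a type and less RNA per cell cannot be told apart. The monocyte and macrophage markers had a median CreER minus mock difference of -0.80 among LT-HSC-derived cells. Of 11 past the floor, 10 were below 0 and 5 at least 2-fold lower. Among ST-HSC-derived cells the median was -0.31, with 11 of 11 below 0 and 1, F13a1, 2-fold lower. Single markers differed from the median. In LT-HSC-derived cells F13a1 was the 1 marker above 0, at 0.42, and Ccr2 was at -0.13, beside Mrc1 at -1.32. In ST-HSC-derived cells Ccr2 was at -0.89 and Mrc1 at -0.03. F13a1, Ccr2 and Csf1r had their lower difference among ST-HSC-derived cells, and the other markers past the floor among LT-HSC-derived cells. Over all genes past the floor, 55.6% were below 0 and 0.767% at least 2-fold lower among LT-HSC-derived cells, and 57.4% and 0.0796% among ST-HSC-derived cells. The summed linear signal of these markers was 26190 on the LT-HSC CreER array and 42810 on the LT-HSC mock array, and 38160 on the ST-HSC CreER array and 48610 on the ST-HSC mock array. The LT-HSC CreER array was thus lowest for this sum, as for Klf4, whereas the highest array was ST-HSC mock for the sum and LT-HSC mock for Klf4. Ly86, Marco, C1qa and C1qb were under the floor on all 4 arrays. Dendritic cell markers, of which Flt3, Zbtb46 and Siglech were under the floor on all arrays, had medians of -0.74 among LT-HSC-derived cells, with 5 of 5 below 0, and -0.13 among ST-HSC-derived cells, with 5 of 6 below 0. The part of these cells in the Klf4 difference was not tested.

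Mast cell and basophil markers had a summed linear signal of 37870 on the LT-HSC CreER array and 47470 on the LT-HSC mock array, and of 15860 on the ST-HSC CreER array and 10450 on the ST-HSC mock array. For the neutrophil markers, 5 of which are also among the C/EBP and PU.1 targets above, the sum was 81710 on the LT-HSC CreER array and 69860 on the LT-HSC mock array, and 106200 on the ST-HSC CreER array and 78660 on the ST-HSC mock array. The mean log2 level of the 10 neutrophil markers was 12.68 on the LT-HSC CreER array and 12.58 on the LT-HSC mock array, and 13.15 on the ST-HSC CreER array and 12.39 on the ST-HSC mock array. The array lowest for neutrophil markers was therefore LT-HSC mock by the sum and ST-HSC mock by the mean, while the mast cell and basophil sum was largest on the LT-HSC mock array, where Cebpa, Cebpd, Cebpe and Gfi1 were lowest. The eosinophil markers summed to 22370 on the LT-HSC CreER array and 20040 on the LT-HSC mock array, and to 15990 on the ST-HSC CreER array and 7129 on the ST-HSC mock array. The part of cell composition in the differences of these 4 genes was not tested.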

How the data were processed

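RNA from 4 samples was hybridised to 1 Affymetrix whole-transcript array each, after amplification with the Ambion WT Expression Kit, per the labels' protocols. The authors deposited 1 value per probe set, taken as log2 because the values span 2.21 to 14.82. The submitters' processing notes name Affymetrix Expression Console. The sources used here give neither its version nor the summarisation, the normalization or any batch. Array summaries compress differences near background.

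Values were used as deposited. Of 35556 probe sets, 21789 had 1 gene symbol, 1621 several and 12146 none here; 19938 genes were each represented by their probe set with the highest mean. A gene entered a comparison of 2 arrays when its higher array exceeded that array's median (the signal floor), and was counted at 2-fold or 1.5-fold. limma 3.58.1 in R 4.3.3 (lmFit, eBayes; 4.27 prior degrees of freedom) gave the additive fit, tested on simulated data, with Benjamini-Hochberg adjustment over all genes. The 1 residual of each gene is the difference of its CreER effect between populations. The variance and the prior therefore cannot separate such a difference from noise. The p-values of the fit are approximate, and they measure the spread between these arrays only. Promoter sequences are from RefSeq (GRCm38.p6) and matched 5 of the 8 genes. The alternatives were quantile, cyclic loess and median normalization, averaged probe sets, other floors and folds, an eBayes trend and an adjusted p of 0.1.

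All 8 genes were named in every comparison. Partners Kdm1a, Trib1, Irf8, Gata2 and Tcf3 were always named, as were the 3 nearest genes by pattern. Up to 4 genes per list and comparison past 2-fold could be named, and some of these are. Other list genes (Camp, Ltf, Prtn3, Elane, Csf1r, Csf3r, Egr1, Egr3 and Ddit3 with CreER) and single markers were named after their values were seen. The genes and lists were chosen with earlier results of these data known.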

Additional observations from a re-analysis of the deposited data

Results flagged for a closer look

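Klf4 stood on opposite sides in the population comparisons: LT-HSC minus ST-HSC was -0.26 log2 units with CreER and 0.47 with mock, each at least 0.25 in size, and the difference between these effects was -0.73. With 1 array per group this difference was not tested. The Klf4 value with CreER lay just past 0.25 and close to the SD of a difference of 2 arrays for this gene (0.261). Its CreER minus mock differences, -0.96 among LT-HSC-derived and -0.22 among ST-HSC-derived cells, had the same sign. No other gene of the 8 met this criterion, either between transductions or between populations. The share of all genes that met it was not computed.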

How the results depend on the processing

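Lowering the threshold to 1.5-fold raised the number of the 8 genes counted for CreER minus mock in LT-HSC-derived cells to 2, against 0 at 2-fold. The other alternatives run (quantile, cyclic loess and median normalization, averaged probe sets, a floor at the 75th percentile or none, 3-fold, an eBayes trend and an adjusted p of 0.1) left all counts of these genes at 0 in the 4 pairwise comparisons and in limma. Several of these could not have changed a pairwise count. Each gene had 1 probe set, all 8 were above the main floor on every array, and 3-fold and the higher floor are stricter. With the floor at the 75th percentile Cebpd was under it on every array, so that fit held 7 of the 8 genes. The 238 single-gene values recomputed kept their side of the threshold or moved by less than the residual SD, and no additive estimate of a fitted gene changed sign. Only the normalizations could change a single-gene difference or additive estimate. Averaged probe sets, the floors and the trend leave the values of each of these genes as they are. Of 128 pairwise differences recomputed, 1 changed sign: Cebpb, CreER minus mock in LT-HSC-derived cells, was 0.012 after quantile normalization and -0.016 as deposited, which put 5 of the 8 genes above 0 and 3 below. The largest shift of a pairwise difference was 0.067 log2 units. The lowest limma adjusted p of the 8 genes over the alternatives was 0.355 for CreER and 0.156 for population. The additive fit paired CreER with mock within each population. Pairing by biological replicate was not possible because each group has 1 array and the labels carry no replicate numbers. Leaving out an array leaves no residual degree of freedom.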
